A study of Equus caballus with 28 samples.

Results

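The microRNAs eca-miR-143 and eca-miR-145 of the horse were the only rows carrying these names, with any arm suffix, among 844 miRNAs counted in the series (690 known and 154 predicted). Each had a single row with no arm suffix. The study sequenced small RNA from Warmblood mares sampled 13 days after ovulation, once when pregnant and once in a cyclic oestrous cycle without insemination, all pregnancies being by the same stallion. The 28 libraries were endometrium of pregnant (n = 5) and cyclic (n = 4) mares, uterine fluid (UF) of pregnant (n = 5) and cyclic (n = 4) mares, embryonic tissue (n = 5), named embryo in the labels and stored after its capsule had been taken off, and the yolk sac fluid (YS fluid) aspirated from the same conceptuses (n = 5). UF was absorbed with a tampon. The replicate number was taken as the mare, and the cyclic samples of mare 5 were not used here.

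Both miRNAs are known to be processed from neighbouring hairpins on a single primary transcript. In the RefSeq annotation of the TB-T2T assembly, MIR143 and MIR145 lay on the same chromosome. The only other gene entry overlapping them or lying between them was LOC138917275. They are abundant in vascular and visceral smooth muscle and in fibroblasts and other stromal cells, and low in purified epithelial cells. miR-145 represses KLF4 and miR-143 represses ELK1, and in this way the pair favours the contractile smooth muscle state. Endometrial stroma and vessels contain such cells, whereas a conceptus at this stage consists mainly of trophoblast and yolk sac layers around a small embryo proper.

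The depth differed widely between sample types. The total of counted miRNA reads was 61836 to 371630 in cyclic endometrium, 280065 to 590593 in pregnant endometrium, 62087 to 226308 in cyclic UF, 79173 to 152860 in pregnant UF, 28204 to 44768 in embryos and 4352 to 14531 in YS fluid. Levels are given as CPM, the reads of a miRNA scaled to 1000000 counted miRNA reads of its library. The miR-302 and early embryo list summed to 37983 CPM on average in embryos and 93631 in YS fluid but to at most 13.8 in the 4 uterine groups. The epithelial miR-200 and miR-205 list was high in all 6 groups and so marked none of them: its mean sum was 61079 CPM in cyclic and 61530 CPM in pregnant endometrium, the 2 lowest of the 6, and 120143 CPM in embryos, the highest.

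miR-143 was an abundant endometrial miRNA. In cyclic endometrium it stood at 7649, 13958, 13664 and 11103 CPM in mares 1 to 4 (mean 11594 ± 2925, SD, n = 4). In pregnant endometrium it stood at 8005, 6681, 7189, 11483 and 34245 CPM in mares 1 to 5 (mean 13521 ± 11736, SD, n = 5). The 2 groups overlapped, and mare 5 lay far above the rest: without it the pregnant mean was 8340 ± 2165 CPM (SD, n = 4), below the cyclic mean. It took a mean of 1.16% of miRNA reads in cyclic and 1.35% in pregnant endometrium, and ranked between 13 and 25 among the known miRNAs of the cyclic libraries and between 6 and 26 of the pregnant ones.

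In UF, miR-143 was lower. Cyclic UF held 723, 1277, 403 and 436 CPM in mares 1 to 4 (mean 709.7 ± 405, SD, n = 4). Pregnant UF held 186, 2360.0, 471, 1422 and 2981 CPM in mares 1 to 5 (mean 1484 ± 1196, SD, n = 5), with the lowest and the highest UF libraries both in this group. Every UF library lay below every endometrial library.

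Embryos held the least miR-143. They stood at 284, 67.0, 249, 277 and 459 CPM in mares 1 to 5 (mean 267 ± 139, SD, n = 5), on 8, 3, 9, 8 and 19 reads. YS fluid stood at 791, 346, 1071, 3906 and 619 CPM (mean 1347 ± 1455, SD, n = 5), on 6, 5, 14, 17 and 9 reads. Mare 4 lay apart in YS fluid, and without it the mean was 707 ± 304 CPM (SD, n = 4). These counts were small: the exact 95% binomial interval of the highest YS fluid library ran from 2277 to 6247 CPM and that of the lowest embryo from 13.8 to 196 CPM, which cover counting error only.

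Ordered by mean, the miR-143 level fell from pregnant endometrium to cyclic endometrium, pregnant UF, YS fluid, cyclic UF and embryo. Only the step from cyclic endometrium to pregnant UF separated neighbours without overlap, by 7.81-fold between means. The other neighbours in this order overlapped.

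**Figure D1:**
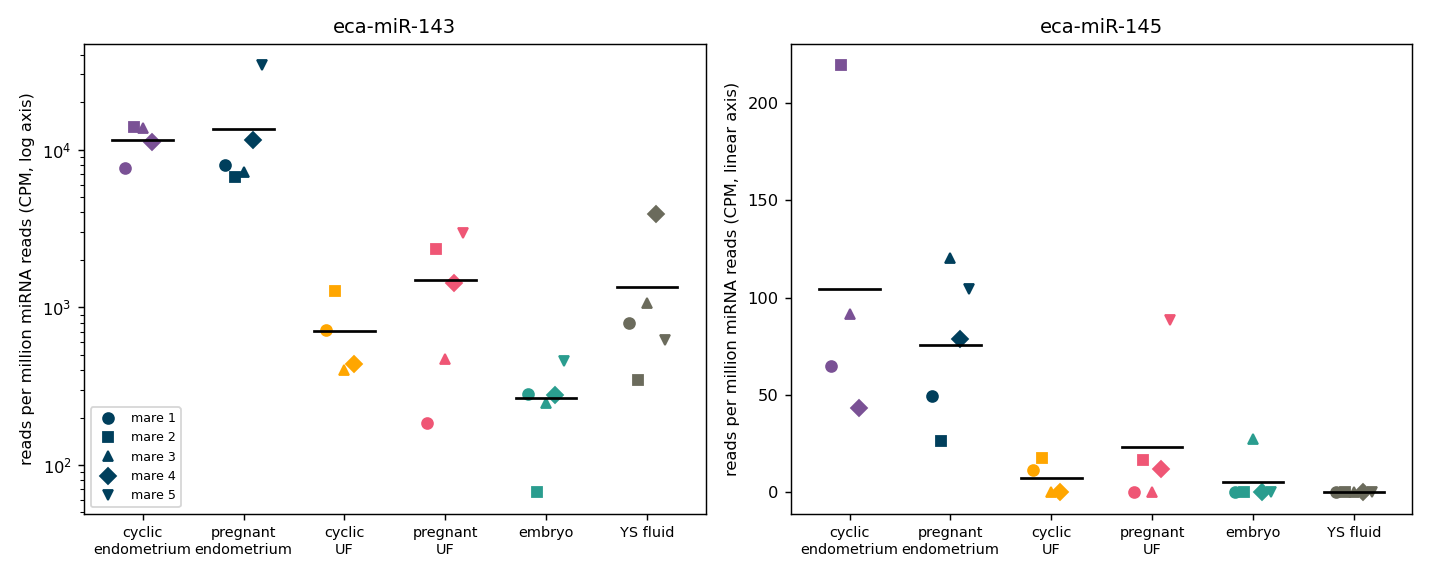
miR-143 (left, log axis) and miR-145 (right, linear axis) in CPM in each library of the 6 groups, a symbol per mare and a bar at the group mean. miR-143 lies between 6681 and 34245 CPM in all 9 endometrial libraries and at most 3906 CPM in all others, and miR-145 is at 0 in all 5 YS fluid libraries.

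miR-145 was read far less often than miR-143 in every group. Cyclic endometrium gave 4, 66, 34 and 12 reads in mares 1 to 4, or 64.7, 219, 91.5 and 43.1 CPM (mean 105 ± 78.9, SD, n = 4). Pregnant endometrium gave 17, 9, 71, 22 and 30 reads, or 49.4, 26.6, 120.2, 78.6 and 104 CPM (mean 75.8 ± 38.4, SD, n = 5). The 2 groups overlapped, and mare 5, which was highest for miR-143, was not the highest here.

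Outside the endometrium miR-145 was near the detection limit. Cyclic UF gave 2, 4, 0 and 0 reads (mean 7.29 ± 8.79 CPM, SD, n = 4) and pregnant UF 0, 2, 0, 1 and 7 reads (mean 23.4 ± 37.1 CPM, SD, n = 5). Without mare 5 the pregnant UF mean was 7.20 ± 8.53 CPM (SD, n = 4). Among embryos only that of mare 3 gave a read, 1 read or 27.6 CPM, and none of the 5 YS fluid libraries gave any.

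How far these low counts can be read depended on depth. At the pooled level of pregnant endometrium, 81.0 CPM, the 5 embryo libraries would have given 14.5 reads of miR-145 in all and gave 1. The pooled embryo level was thus 14.5-fold lower, with an exact 95% counting interval of 2.57 to 578. The 5 YS fluid libraries would have given 4.37 reads and gave 0. A floor of 3 reads over that group is 55.6 CPM, which is 1.46-fold below the pooled level of pregnant endometrium. The exact 95% counting interval allowed a difference as small as 1.17-fold. Mare 3 gave 71 of the 149 endometrial reads. The pregnant endometrium of mares 1 and 2 stood at 49.4 and 26.6 CPM, below this floor, so a lower YS fluid level was not shown in every mare.

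Pregnancy was compared with the cyclic state within mares, the question being whether a conceptus alters the miRNAs of its surroundings. miR-143 in endometrium was higher in 2 of 4 mares and lower in the other 2, with a log2 fold change of -0.24 (SE 0.20, FDR = 0.778, edgeR's quasi-likelihood test, blocked by mare). For miR-145 the log2 fold change was -0.26 (SE 0.47, FDR = 0.915, same test), again with 2 of 4 mares higher. Neither of the 2 miRNAs was called, where a call needed a fold change of 2 or more and an FDR no higher than 0.05. Of the 386 miRNAs tested, 3.37% were. Without the block, which also brings in the unpaired pregnant mare 5, the log2 fold change of miR-143 was 0.48 (FDR = 0.791), and without the block and without mare 5 it was -0.27 (FDR = 0.801).

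In UF, miR-143 was higher in pregnancy in 3 of 4 mares, and the log2 fold change was 0.37 (SE 0.45, FDR = 0.889, edgeR with the mare as block). That of miR-145 was 0.06 (SE 1.36, FDR = 0.999), on 6 cyclic reads and 3 pregnant reads in the 4 paired mares, with an error too wide to give a direction. Neither was called, against 4.92% of 305 miRNAs. The mare that went against the others for miR-143 was mare 1, whose pregnant UF library held 25 reads of it.

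An interaction term tested whether the difference between pregnant and cyclic samples was the same in UF as in endometrium. For miR-143 it was 0.51 on the log2 scale (SE 0.53, FDR = 0.986, edgeR), not called, against 1.69% of 415 miRNAs called. It rested on mare 1: without this mare the interaction was 1.69 (FDR = 0.0343), past the threshold. For miR-145 it was 0.18 (SE 1.47, FDR = 1).

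UF and endometrium of the same mare and state were then compared by pairs in CPM, and the groups by edgeR fits without a mare block. miR-143 was lower in UF in 9 of 9 pairs. In the pregnant pairs it was 43.1-, 2.83-, 15.3-, 8.08- and 11.5-fold lower in mares 1 to 5, and in the cyclic pairs 10.6-, 10.9-, 33.9- and 25.5-fold lower in mares 1 to 4. The log2 fold change was -3.35 in pregnancy (SE 0.66, FDR = 0.00122, edgeR), where 20.1% of 359 miRNAs were called lower and 18.1% were lower without overlap of the groups. In cyclic mares it was -4.27 (SE 0.44, FDR = 1.0e-05, edgeR), where 18.9% of 328 miRNAs were called lower and 18.6% were lower without overlap. In bulk tissue, fewer cells of a type and less of the miRNA per cell cannot be told apart. UF was the supernatant of the centrifuged tampon, and the source of its miR-143 was not tested.

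miR-145 was also lower in cyclic UF than in cyclic endometrium, by a log2 fold change of -3.79 (SE 0.87, FDR = 0.00339, edgeR). In pregnancy it was -2.13 (SE 0.82, FDR = 0.0541, edgeR) and not called. With the mare as block, which the same-mare sampling allows, the pregnant value became -2.30 (FDR = 0.0121) and passed the threshold. Leaving out mare 5, whose UF gave 7 of the 10 reads, it was -3.51 (FDR = 0.00520, edgeR). Fluids were extracted with another kit than tissues, so that kit and compartment cannot be told apart in any comparison of a fluid with a tissue.

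**Figure D2:**
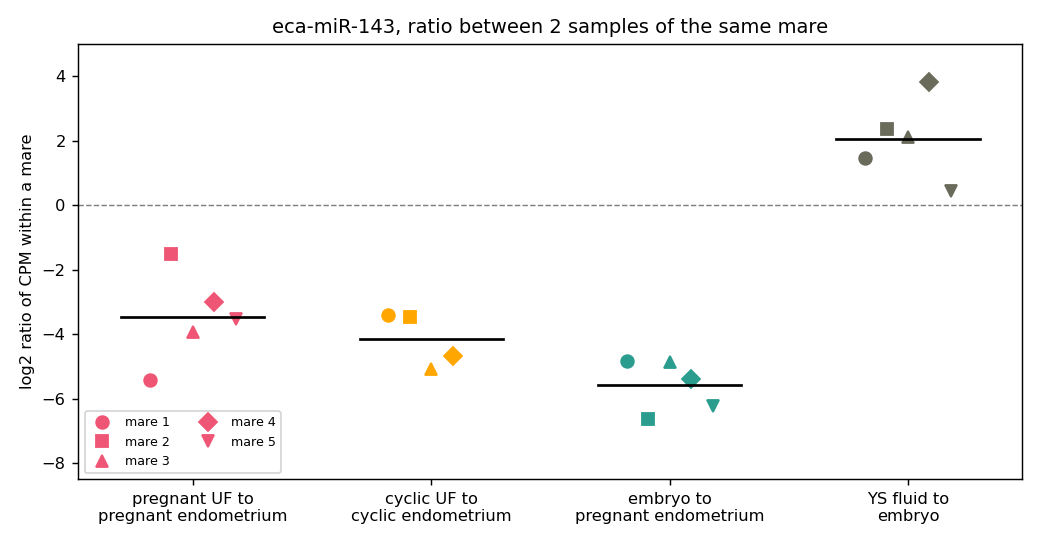
log2 ratio of miR-143 CPM between samples of the same mare, a symbol per mare and a bar at the mean of each column. All 9 ratios of UF to endometrium and all 5 of embryo to endometrium lie below 0, and all 5 of YS fluid to embryo lie above 0.

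The embryo was compared with the endometrium of the same mare by pairs in CPM, and the groups by edgeR fits without a mare block. miR-143 was lower in the embryo in 5 of 5 pairs, from 28.2- to 99.7-fold, and the means differed 50.6-fold. The log2 fold change was -6.96 with TMM factors (SE 0.64, FDR = 2.3e-06, edgeR), the 7th lowest of 359 miRNAs. It was -6.44 with RLE size factors and -5.66 with library totals alone, called lower with both. The log2 fold change of miR-145 was -4.79 with TMM factors (SE 0.87, FDR = 0.000464, edgeR), set by a single embryonic read. Both were called lower, in a comparison where 42.6% of miRNAs were called lower and 28.7% higher, and 29% were lower without overlap.

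miR-143 was lower in the embryo than in pregnant UF as well, with a log2 fold change of -4.00 (SE 0.75, FDR = 0.000613, edgeR) where 38.7% of 310 miRNAs were called lower. The groups overlapped here, since the pregnant UF of mare 1 (186 CPM) lay below 4 of the 5 embryos. miR-145 was too low to be tested in this comparison, in embryo against YS fluid or in YS fluid against pregnant UF.

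YS fluid was set against the same endometrium and against UF. miR-143 was lower in YS fluid than in pregnant endometrium in 5 of 5 pairs, from 2.94- to 55.3-fold, with a log2 fold change of -5.45 (SE 0.78, FDR = 2.19e-05, edgeR). miR-145 was called lower too (FDR = 0.0023, edgeR), although YS fluid gave no read of it. The size of this difference is known only by the counting interval given above, which does not cover differences between mares. In this comparison 35.2% of 341 miRNAs were called lower and 17.9% higher, and 22.9% were lower without overlap.

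For YS fluid against pregnant UF the call depended on the scaling. The log2 fold change of miR-143 was -2.13 (SE 0.71, FDR = 0.0174, edgeR) with TMM factors, -1.28 (FDR = 0.149) with RLE size factors and -0.28 (FDR = 0.761) with library totals alone, and the mean CPM differed 1.10-fold. It was also not called without mare 2 (-1.63, FDR = 0.0756), mare 3 (-2.03, FDR = 0.0738) or mare 5 (-1.59, FDR = 0.0771). The median of all 277 miRNAs tested moved with the scaling, from -0.54 to 0.14 and 1.13, and relative to that median miR-143 stood at -1.59, -1.43 and -1.41. With TMM, 35.7% of miRNAs were called lower.

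A change of scaling moves the log2 fold changes of all miRNAs nearly alike, so the distance of a miRNA from the median is almost set by construction and is given only as its place among the others. Against pregnant endometrium, the log2 fold change of miR-143 minus the median was -5.93, -5.88 and -5.96 in the embryo with the 3 scalings, and -4.62, -4.65 and -4.66 in YS fluid.

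**Figure D3:**
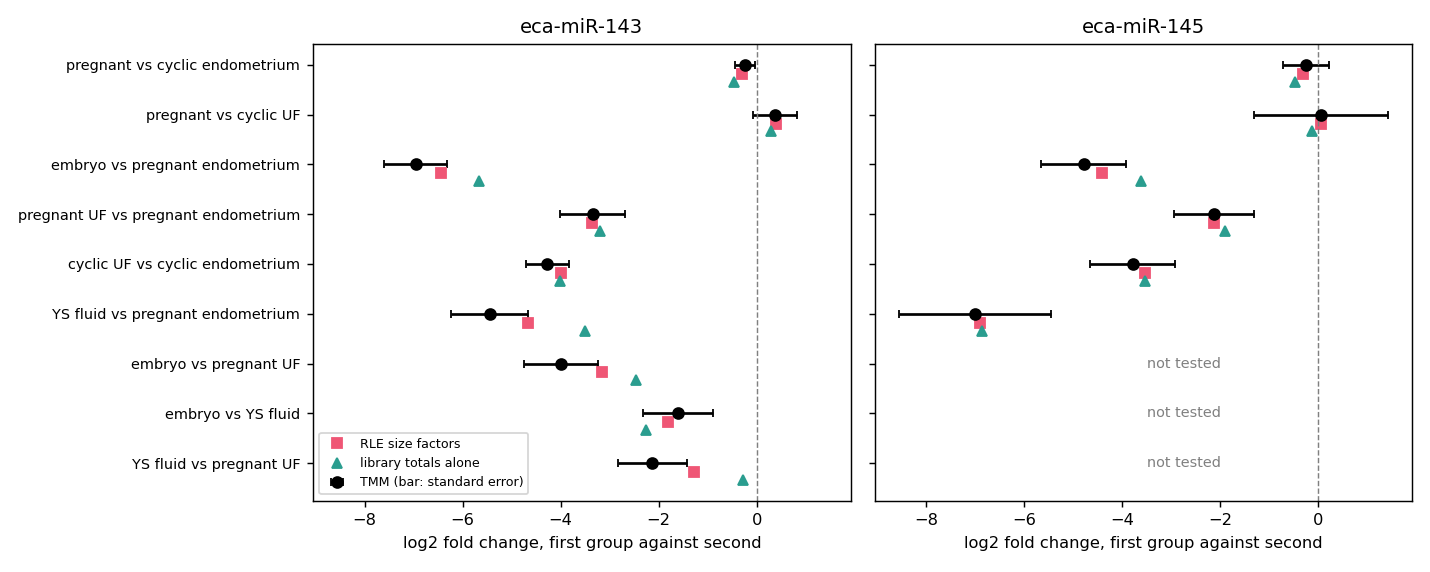
log2 fold changes of miR-143 (left) and miR-145 (right) in 9 comparisons with TMM factors (circles, bars showing the standard error), RLE size factors (squares) and library totals alone (triangles). miR-143 in YS fluid against pregnant UF moves from -2.13 to -0.28, whereas it stays below -2 under all 3 scalings in the 5 comparisons of embryo, UF or YS fluid with endometrium or of embryo with pregnant UF. The miR-145 value for YS fluid comes from a group with no read and is no bound.

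Within the conceptus, miR-143 was higher in YS fluid than in the embryo it was taken from in 5 of 5 pairs, from 1.35- to 14.1-fold in CPM. The log2 fold change of embryo against YS fluid was -1.61 (SE 0.72, FDR = 0.0919, edgeR), not called, against 13.1% of 259 miRNAs called lower in the embryo. It passed the threshold with DESeq2 (-1.78, FDR = 0.0322) and with library totals alone in edgeR (-2.26, FDR = 0.0427).

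In CPM, the step from tissue to fluid ran upward in the conceptus and downward in the uterus, and this difference was tested. For miR-143 the change from embryo to YS fluid minus that from pregnant endometrium to pregnant UF was 5.12 on the log2 scale (SE 0.97, FDR = 0.000719, edgeR), and 18.8% of 400 miRNAs were called in this direction. For miR-145 it was 0.47 (SE 1.25, FDR = 0.92, edgeR), not called, with a sign that turned to -0.61 with RLE size factors and -0.93 with library totals alone. YS fluid of mare 4, the YS fluid library with the highest miR-143, had the fewest reads of the 28 libraries, 4352.

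Both miRNAs come from the same transcript, and their ratio was taken within each library. Such a ratio, like that of any pair of miRNAs, needs no scaling between libraries. Pooled over libraries, miR-143 had 111 reads for each read of miR-145 in cyclic endometrium (12844 to 116) and 149.9 in pregnant endometrium (22336 to 149), and single endometrial libraries ranged from 59.8 to 329. It had 87.5 in cyclic UF (525 to 6) and 73.3 in pregnant UF (733 to 10). Single libraries moved these ratios: without mare 5 that of pregnant UF was 166 (497 to 3), without mare 2 that of cyclic endometrium was 173 (8642 to 50), and without mare 3 that of pregnant endometrium was 232 (18090 to 78). Of the reads of both miRNAs, miR-145 thus took 0.895% (exact 95% binomial interval 0.740 to 1.07) in cyclic endometrium, 0.663% (0.561 to 0.778) in pregnant endometrium, 1.13% (0.416 to 2.44) in cyclic UF and 1.35% (0.647 to 2.46) in pregnant UF, or 0.60% there without mare 5.

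No difference in this ratio between uterine groups passed its test. The log2 ratio, with 0.5 reads added to both counts, differed by 0.10 between pregnant and cyclic endometrium (p = 1, exact sign-flip test over 4 mares, two-sided) and by 0.30 between pregnant and cyclic UF (p = 0.625, same test), a design that cannot go below 0.125. Pregnant UF differed from pregnant endometrium by -1.13 (exact permutation test, two-sided, p = 0.0873, BH-adjusted over 9 comparisons 0.157). Cyclic UF differed from cyclic endometrium by -0.77 (exact permutation test, p = 0.257).

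In the conceptus the ratio could not be measured. Embryos gave 47 reads of miR-143 with 1 of miR-145, and YS fluid 51 with 0, which allows a miR-145 share of up to 5.88% of both by the floor of 3 reads, or 6.98% by the exact 95% binomial interval. At the ratio pooled over pregnant and cyclic endometrium, 0.354 and 0.384 reads of miR-145 would have been seen beside these. The log2 ratio differed from that of pregnant endometrium by -3.53 in embryos and -3.04 in YS fluid (exact permutation tests, each p = 0.00794, the smallest that 5 against 5 can give, BH-adjusted 0.0357), but with 0 reads of miR-145 in 9 of 10 libraries these values follow from the added 0.5 reads and the depth.

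The miRNAs whose levels ran most nearly parallel to miR-143 over the 28 libraries were those of the miR-199 family, known from mesenchymal and stromal cells. Likeness was measured as the SD of the log2 ratio to miR-143 among the 215 miRNAs that averaged 100 CPM or more, with a median SD of 2.99. The SD was 0.607 for eca-miR-199b-3p and 0.609 for eca-miR-199a-3p, which share a mature sequence and had nearly the same reads (24910 and 24955), so that they count as 1 measurement. eca-miR-199b-5p followed with 0.842, eca-miR-196b, encoded in a HOX cluster, with 0.862, and eca-miR-195, a miR-15/16 family member, with 0.966. These are descriptions over libraries that share depth and sample type.

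miR-145 had no close match at its depth. The smallest SDs to it among 216 miRNAs were 1.22 for eca-miR-369-3p, 1.25 for eca-miR-199b-5p, 1.26 for eca-miR-126-3p, 1.27 for eca-miR-140-5p and 1.30 for eca-miR-487b, against a median of 2.50. miR-143 itself had an SD of 1.58 to miR-145 over all 28 libraries and of 0.849 over the 9 endometrial ones, where miR-145 was read best.

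**Figure D4:**
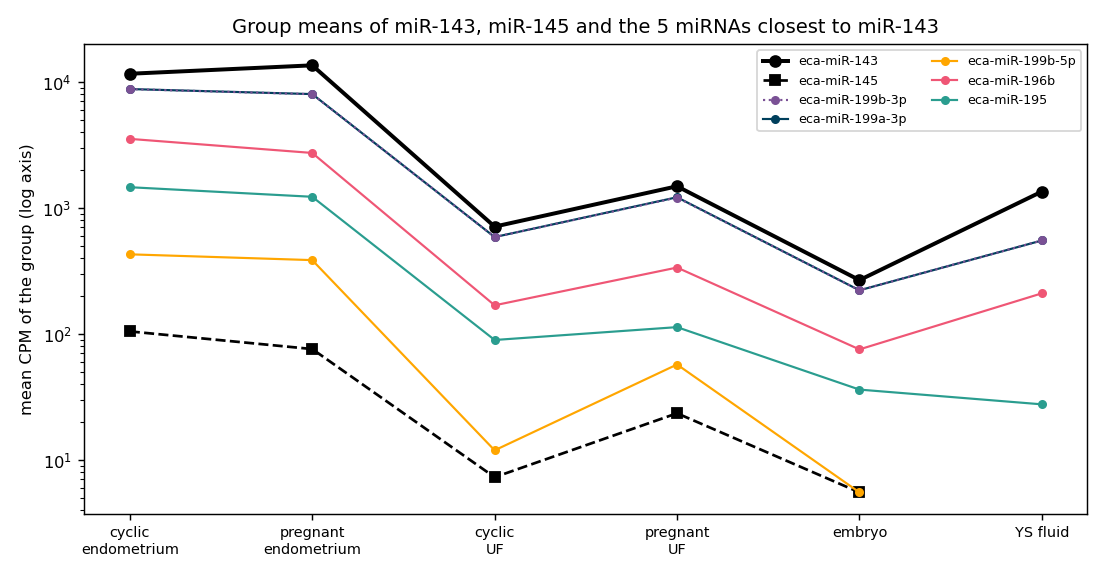
Group means in CPM (log axis) of miR-143, miR-145 and the 5 miRNAs with the patterns closest to miR-143, over the 6 groups. All are highest in the 2 endometrial groups. Points at 0 are not drawn, which concerns miR-145 and eca-miR-199b-5p in YS fluid, and the lines of the 2 miR-199 3p forms coincide.

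Lists of miRNAs typical of other cell types were read in the same comparisons. The 5 mesenchymal and stromal miRNAs were miR-199a, miR-199b and miR-214 forms. Both miR-199 3p forms and eca-miR-199b-5p were the closest to miR-143 in these same libraries. The list was also chosen with earlier results known, so its likeness to miR-143 is no separate evidence. All 5 tested were called lower in pregnant UF than in pregnant endometrium and in cyclic UF than in cyclic endometrium. They were also called lower in embryo and in YS fluid than in pregnant endometrium. Of all miRNAs tested, 20.1%, 18.9%, 42.6% and 35.2% were called lower in these 4 comparisons. With the 2 miR-199 3p forms taken as 1, 4 of 4 were called lower in each. Their median log2 fold changes were -2.99, -4.44, -7.06 and -6.14, against -0.12, -0.24, -1.02 and -0.84 for all miRNAs tested. Of the 5, however, 2 had no read in any embryo and 1 had none in any YS fluid library, so these entered the tests through endometrium alone. The embryo median was the value of eca-miR-199b-5p, which averaged only 5.52 CPM in embryos. None of the 5 was called between pregnant and cyclic mares in endometrium or UF.

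The endothelial miR-126 pair was also called lower in all 4 of these comparisons, 2 of 2 in each, beside the same shares of all miRNAs, with median log2 fold changes of -4.56, -5.84, -5.16 and -5.60. Of the 7 blood cell miRNAs, 4 of 7 tested were called lower in pregnant UF (20.1% of all miRNAs) and 3 of 6 in cyclic UF (18.9%) than in endometrium, and 7 of 7 were called lower both in embryo (42.6%) and in YS fluid (35.2%). However, 2 of these 7 had no read in any embryo and 5 had none in any YS fluid library. Those entered the tests through endometrium alone. Of the 6 epithelial miRNAs, 0 were called lower and 1 higher in pregnant UF, and 0 lower and 2 higher in cyclic UF, where 13.6% and 11.9% of all miRNAs were called higher, with medians of 0.35 and 0.58. In the conceptus 3 of these 6 were called lower and 1 higher in embryo, and 3 lower and 0 higher in YS fluid, with medians of -1.34 and -1.91. The 4 miRNAs of the smooth muscle phenotype list (miR-21, miR-221, miR-222, miR-26a), which many cell types share, gave 0 called lower in either UF, and 1 higher in pregnant and 2 in cyclic UF, but 4 of 4 were called lower in embryo and 3 of 4 in YS fluid, with medians of -2.67 and -2.66. The part of cell composition in the change of miR-143 was not tested.

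The stromal list was also read in the conceptus interaction. Of its 5 members 4 were called higher (3 of 4 with the miR-199 3p forms taken as 1), as were both miR-126 forms, against 18.8% of all miRNAs, whereas 5 of 6 epithelial miRNAs were called lower, against 14.8% of all miRNAs, and 1 higher. The median was 3.63 for the stromal and -1.99 for the epithelial list, against 0.10 for all 400 miRNAs. Of the 5 stromal members, 2 had no read in any embryo, and both of these were among the 4 called. The called members with embryo reads were the 2 miR-199 3p forms (3.62 and 3.63), which count as 1 measurement. eca-miR-199b-5p, which was not called, had no read in any YS fluid library.

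The endometrium of pregnant mare 5, highest in miR-143, was read against the same lists. Its stromal list summed to 22560 CPM, where the other 4 pregnant libraries ranged from 10809 to 18351. Cyclic endometrium of mare 2 had a higher stromal sum, 24265 CPM, with 13958 CPM of miR-143. The smooth muscle phenotype list of pregnant mare 5 summed to 258155 CPM (other pregnant libraries 199812 to 248096). In pregnant mare 5 the endothelial list summed to 4816 CPM (others 1598 to 2735) and the striated muscle list (miR-1, miR-133, miR-206, miR-208 and miR-499 forms) to 191 CPM (others 21.4 to 52.3). Its blood cell list was the lowest of the 5, at 3601 CPM, and its epithelial list the highest, at 72098 CPM. The part of these cell types in its miR-143 level was not tested.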

How the data were processed

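Small RNA had been sequenced as single reads, trimmed with cutadapt 1.11 and counted per mature miRNA by the authors (miRPro, miRBase, EquCab2.0 genome). The deposited values were raw read counts of known and predicted miRNAs, with no normalization, and carry no molecular identifiers, so PCR copies are counted as reads. Intervals and floors cover counting error only. The 2 miRNAs and the marker lists were chosen with earlier results of these data known.

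CPM was computed on known and predicted miRNAs together. Each comparison was fitted on its own groups with edgeR 4.0.16 (R 4.3.3, TMM factors, quasi-likelihood F-test, Benjamini-Hochberg adjustment over all miRNAs tested), after keeping miRNAs with at least 1 CPM in as many libraries as the smaller group held. Calls were made at a fold change of 2 or more with an FDR no higher than 0.05. Pregnant against cyclic comparisons were blocked by mare, as in the study, which sampled the same mares in both states. The comparisons between sample types and the conceptus interaction had no block in the main fits. Over mares the same-mare correlation of deviations averaged 0.0379 in endometrium and 0.158 in UF, against -0.0091 and -0.040 for other numbers. In each, 2 of 4 pregnant libraries correlated best with the cyclic library of their own number. For embryo against pregnant endometrium the same-number mean was -0.146, against 0.0352 for other numbers, with 0 of 5 best matches. The counts alone thus do not show that the replicate number is the mare. DESeq2 1.42.0, a likelihood ratio test, RLE size factors, no filter, known miRNAs only, other blocks, all 28 libraries in 1 fit and leaving out each mare were the alternatives. Library totals alone, and leaving out pregnant endometrium of mare 5 without the block, leaving out single libraries from pooled ratios and taking the 2 miR-199 3p forms as 1 were added after the data were seen. The fits were tested on simulated counts.

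Ratios were tested with scipy 1.17.1 on log2 values with 0.5 reads added. Besides both miRNAs, the text named the 5 miRNAs closest in pattern to each (mean of at least 100 CPM) and members of fixed lists. Sequences and a precursor table that repeats the predicted counts were not used here. The labels name no batch.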

Additional observations from a re-analysis of the deposited data

Results flagged for a closer look

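Libraries in 4 groups stood apart from the rest of their group, by the gap to the nearest library relative to the range of the group. Of 17 combinations of a group with a level or ratio checked, 4 held such a library, where chance gives about 1 in 20 for normally distributed values. The endometrium of pregnant mare 5 had 34245 CPM of miR-143, with a median of 7597 CPM in the other 4 mares. The YS fluid of mare 4 had 3906 CPM of miR-143, with a median of 705 CPM in the others, on 17 reads. The embryo of mare 3 had 27.6 CPM of miR-145, which is 1 read, and the others had 0, a case that always stands apart in this way. The pregnant UF of mare 5 had 88.4 CPM of miR-145, on 7 reads, with a median of 6.03 CPM in the others.

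The change of miR-143 from tissue to fluid differed between conceptus and uterus by 5.12 on the log2 scale (FDR = 0.000719, edgeR). In CPM it was upward from embryo to YS fluid in 5 of 5 mares and downward from pregnant endometrium to pregnant UF in 5 of 5. The upward step rested on 3 to 19 reads in embryos and 5 to 17 in YS fluid. Embryo against YS fluid was itself not called (log2 fold change -1.61, FDR = 0.0919, edgeR).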

How the results depend on the processing

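Of the 10 results called, 127 of 134 alternative values stayed called in the same direction, 0 turned and 7 lost the call, all for miR-143 in YS fluid against pregnant UF: DESeq2 -1.22 (FDR = 0.176), RLE -1.28, library totals alone -0.28, known miRNAs only -1.55 and 3 of the 5 fits leaving out a mare (range -2.72 to -1.59). The call was gained by miR-145 in pregnant UF against endometrium with the likelihood ratio test (-2.10), DESeq2 (-2.10), no filter (-2.22), known miRNAs only (-1.94), or without mare 5 (range -3.51 to -1.49), and by miR-143 in embryo against YS fluid with DESeq2 (-1.78), library totals alone (-2.26) and all 28 libraries (-2.04). For miR-143 the pregnancy interaction without 1 mare ranged from 0.11 to 1.69. The 10 called results include miR-145 in YS fluid against pregnant endometrium, where YS fluid gave no read.

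Uncalled values turned sign in pregnant against cyclic endometrium for miR-145 (range without 1 mare -0.85 to 0.55), in UF for miR-143 (-0.31 to 1.03) and for miR-145 (DESeq2 -0.27, library totals alone -0.13, no filter -0.0064, range -0.75 to 0.78), in the pregnancy interaction for miR-145 (-0.63 to 1.28) and in the conceptus interaction for miR-145 (RLE -0.61, library totals alone -0.93). The cause was not tested.

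Without the replicate block, miR-143 in pregnant against cyclic endometrium turned to 0.48, and to 0.39 with all 28 libraries in 1 fit. These fits also take in the unpaired pregnant mare 5, and without the block and that library the value was -0.27. With the mare as block, miR-145 in pregnant UF against endometrium was -2.30 and called. The blocked ratio tests kept their values for embryo (-3.53) and YS fluid (-3.04) against endometrium and for embryo (-2.40) and YS fluid (-1.91) against UF, but pairing 5 mares cannot go below p = 0.0625 in an exact test. The block changed no other call of these miRNAs.

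The log2 ratio of miR-143 to miR-145 ranged without 1 mare from -0.51 to 0.57 (pregnant against cyclic endometrium), -0.10 to 0.78 (UF), -1.73 to -0.57 (pregnant UF against endometrium, -1.63 with 1 read added), -3.08 to -1.88 (embryo against UF) and -2.21 to -1.55 (YS fluid against UF). TMM over 28 libraries put miR-143 in cyclic endometrium at 18610 (CPM) and miR-145 in pregnant endometrium at 131.

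Numbers of miRNAs called by edgeR moved by over 1.5 times as follows. Pregnant against cyclic endometrium had 13, but 2 with known miRNAs only, 0 without the block (58 at an unadjusted p under 0.05), 0 with all 28 libraries (23 unadjusted) and 2 without the block and mare 5. UF had 15, but 3 with known miRNAs only, 0 without the block (35 unadjusted), 2 with all 28 libraries, and 3 to 26 without 1 mare. The pregnancy interaction had 7, but 0 without the block (26 unadjusted), 0 without mare 3 (24 unadjusted), 15 without mare 2 and 20 without mare 1. DESeq2 with the block called 12, 10 and 8 in these 3. Embryo against YS fluid had 91, but 54 with the block, 140 with all 28 libraries and 46, 48 and 40 without mares 2, 4 and 5, and the conceptus interaction had 134, but 74 without mare 1 and 79 without mare 5. Depth limited miR-145 in YS fluid, where 3 reads are 206 to 689 CPM.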

Other observations

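Of 8 striated muscle miRNAs listed, 2 were tested in embryo against pregnant endometrium. eca-miR-499-5p, encoded in a myosin heavy chain gene, was called higher there with a log2 fold change of 3.91 (SE 0.59, FDR = 0.000124, edgeR), where 28.7% of miRNAs were called higher. It was higher in YS fluid than in pregnant endometrium too (3.57, SE 0.55, FDR = 4.55e-05, edgeR), where 17.9% were called higher. For eca-miR-1 in the embryo the value was 0.28 (SE 0.67, FDR = 0.718, edgeR), not called, and it was called lower in pregnant UF (-4.37, FDR = 0.00782, edgeR) and in cyclic UF (-3.49, FDR = 0.0170, edgeR) than in endometrium.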
